A study of Rattus norvegicus with 16 samples.

Results

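The expression of 41 genes of the cell cycle was followed in the growing liver of male rats (strain Sprague-Dawley, age 21 days). The genes were listed by name and found on the arrays through the RefSeq transcript number of their probes. Of the 41 genes, 37 had a matching probe and 34 were measured, that is, their signal in the liver channel was well above background on at least 4 of 16 arrays, out of 13146 transcripts measured in all. No probe matched Mki67, Top2a, Mcm5 or Bub1b, and the probes of Ccne2, Cdkn3 and Rrm1 were well above background on 0 arrays. The pups stayed with their birth mothers, which were dosed in corn oil through gestation and lactation. Group M received 1 mg/kg/day of methyl mercury, polychlorinated biphenyls and organochlorine pesticides, mixed, and group 0.5M got 0.5 mg/kg/day of that mixture. Group AhR received a mixture of aryl hydrocarbon receptor agonists (non-ortho PCBs, dibenzodioxins and dibenzofurans) at 1.8 ng/kg/day in dioxin equivalents, and group C corn oil alone. Each array held RNA pooled from 2 pups, with 4 arrays and 8 pups per group. Litters are not given in the labels, so p-values measure the spread between these pools and would be too small if pools shared litters.

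The cell cycle is driven by cyclins, which rise and fall, and by the cyclin-dependent kinases that they switch on. D-type cyclins with Cdk4 respond to growth signals and release E2F factors, cyclin E with Cdk2 starts DNA synthesis, the MCM helicase opens the DNA, and cyclins A and B with Cdk1 bring the cell into mitosis. Hepatocytes of young rodents still divide and largely leave the cycle as the animal matures, while Cdkn1a, the p21 inhibitor, holds the kinases back. Bulk liver was measured, so fewer dividing cells and less RNA per dividing cell cannot be told apart.

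Liver RNA carried the dye Cy5 and a common RNA the dye Cy3 on each array, and all values here are log2 ratios of Cy5 to Cy3. Replicates 1 and 2 of every group lay on slide 1, and replicates 3 and 4 on slide 2. On slide 2 the arrays had 13006 to 15686 probes well above background, against 7082 to 13824 on slide 1. Transcripts of other tissues stood out on 5 arrays, by the median over a marker list of the log2 ratio minus the mean of the gene. For pancreas it was 1.03 in M replicate 1 and 0.74 in AhR replicate 2, for muscle 4.02 in M replicate 2 and 4.11 in 0.5M replicate 4, and for fat 0.99 in C replicate 2. The exposure showed in Cyp1a1, the classical target of the aryl hydrocarbon receptor, which was higher than in C by 4.58 in M, 3.74 in 0.5M and 2.46 in AhR on the log2 scale (limma, largest adjusted p = 7.28e-06). The labels call the Cy3 RNA a universal rat reference from 14 cell lines, and its content went against that label. Its brightest transcript was the major urinary protein gene Mup4l4, and 7 of 10 hepatocyte markers measured were among its 500 brightest transcripts. Levels against Cy3 are therefore given only as ratios to that common RNA, while differences between groups use it as a shared denominator.

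In C livers the highest ratios to the common RNA among the 34 genes were those of Rrm2, the small subunit of ribonucleotide reductase, at 1.40 ± 0.45, and of Cdca3, a trigger of mitotic entry, at 1.19 ± 0.42 (log2 ratio, SD, n = 4). Cdk1, the mitotic kinase, followed at 1.08 ± 0.34 and Ccna2, cyclin A2, at 1.06 ± 0.38. These 4 neighbours differed by less than their spread. The lowest were Ccnd1, cyclin D1, at -0.72 ± 0.05, Cdc6, which loads the MCM helicase, at 0.05 ± 0.17, Tyms, thymidylate synthase, at 0.13 ± 0.11, and Aurkb, a kinase of chromosome segregation, at 0.14 ± 0.20. Ccnd1 stood below all others, and it was the member with a negative mean in C. Detection was thin for Cdc6, Tpx2, Mcm6, Aurkb and Kif11, which were well above background on 5, 8, 9, 9 and 10 of the 16 arrays.

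Promoters are shown for 2 mitotic genes that varied together over the arrays and for 2 genes whose brightest probe did not follow them. They are the 250 bases before the RefSeq start in build GRCr8, at chr20:19265043-19265292 (plus strand) for Cdk1, chr2:33655226-33655475 (minus strand) for Ccnb1, chr20:7150682-7150931 (plus strand) for Cdkn1a and chr7:64771203-64771452 (plus strand) for Cdk4. Capitals mark matches to TTTGAA, the cell cycle homology region (CHR) bound by the DREAM complex, and to CCAAT, bound by NF-Y, on either strand.
Cdk1: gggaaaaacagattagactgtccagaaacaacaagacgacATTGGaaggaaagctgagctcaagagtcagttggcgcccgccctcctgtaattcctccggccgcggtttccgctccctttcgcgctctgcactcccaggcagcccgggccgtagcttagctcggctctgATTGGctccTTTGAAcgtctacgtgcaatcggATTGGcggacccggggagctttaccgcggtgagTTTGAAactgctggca
Ccnb1: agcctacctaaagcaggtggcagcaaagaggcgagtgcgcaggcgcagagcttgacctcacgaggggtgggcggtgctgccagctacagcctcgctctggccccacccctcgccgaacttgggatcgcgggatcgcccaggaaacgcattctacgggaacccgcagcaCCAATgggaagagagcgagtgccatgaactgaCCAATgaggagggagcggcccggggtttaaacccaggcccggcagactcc
Cdkn1a: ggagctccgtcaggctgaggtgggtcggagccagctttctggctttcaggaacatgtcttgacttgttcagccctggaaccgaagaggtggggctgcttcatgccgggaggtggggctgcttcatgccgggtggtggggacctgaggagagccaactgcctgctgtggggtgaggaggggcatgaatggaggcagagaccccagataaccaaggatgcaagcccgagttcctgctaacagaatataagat
Cdk4: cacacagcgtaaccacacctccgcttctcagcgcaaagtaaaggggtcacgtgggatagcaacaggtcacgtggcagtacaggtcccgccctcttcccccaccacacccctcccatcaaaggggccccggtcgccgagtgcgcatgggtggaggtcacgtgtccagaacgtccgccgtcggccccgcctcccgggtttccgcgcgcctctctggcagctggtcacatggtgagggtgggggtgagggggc
The Cdk1 window held 2 TTTGAA matches, at -72 to -67 and at -16 to -11 from the start, and 3 CCAAT matches. The Ccnb1 window held 2 CCAAT matches and the windows of Cdkn1a and Cdk4 held none of these letters. The table of RefSeq promoters used here held 24 of the 34 measured genes, and the counts below use the 250 bases before and 50 after the start. TTTGAA was found in 7 of the 13 mitosis genes with an entry and in 1 of 11 other members, against 18.1% of all 27457 promoters. CCAAT was found in 11 of 13 mitosis genes and 5 of 11 other members, against 37.7% of all promoters. The 4 windows shown do not stand for all members. Aurka and Bub1 followed the mean of the other members over the arrays at r = 0.913 and 0.84, but had 0 matches to TTTGAA or CCAAT. Mcm2 followed it at 0.256 and had 2 TTTGAA matches. The E2F letters TTTGGCGC or TTTCCCGC were in 0 of 13 mitosis genes and in 4 of 11 other members (Mcm3, Mcm6, Mcm7 and Tyms), against 1.53% of all promoters. Only these 2 forms were searched. Similar letters such as TTTCGCGC, which the Cdk1 window holds, were not counted, so the counts do not show that mitosis genes lack E2F sites. A match of letters does not show that a factor binds there.

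At the dose of 1 mg/kg/day (M against C), 0 of the 34 genes passed an adjusted p of 0.05 in limma, where 0.319% of all transcripts did, and 1 gene had an unadjusted p under 0.05, where 10.1% of all transcripts did. That gene was Cdk4, the partner of cyclin D. Its ratios were -0.05, 0.11, 0.08 and -0.03 in M, against 0.31, 0.08, 0.47 and 0.34 in C. Of the M arrays, 3 lay below all C arrays, and M replicate 2 lay above C replicate 2. The difference was -0.27 ± 0.09 (SE, unadjusted p = 0.00821, adjusted p = 0.269), with -0.16 on slide 1 and -0.38 on slide 2.

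Other G1 regulators differed less. E2f1, the transcription factor that starts the S phase programme, was 0.16 ± 0.09 higher in M than in C (adjusted p = 0.564), and Cdk2, the partner of cyclin E, was 0.18 ± 0.11 lower (adjusted p = 0.623). Ccnd1 had -0.39, -0.94, -0.96 and -1.03 in M, against -0.65, -0.72, -0.75 and -0.78 in C. M replicate 1 lay above all C arrays and the other 3 M arrays below them, and the difference was -0.11 ± 0.13 (adjusted p = 0.836).

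Cdkn1a had 0.91, 0.17, 0.29 and 0.09 in M, against 0.63, 0.01, -0.09 and 0.21 in C, a difference of 0.18 ± 0.15 (adjusted p = 0.754). A second, dimmer probe of Cdkn1a gave -0.12, so its direction was not settled. Among the replication genes, Pcna, the sliding clamp of DNA polymerase, had 0.05, 0.48, 0.26 and 0.32 in M, against 0.14, 0.28, 0.52 and 0.18 in C. The groups overlapped, with a 95% interval of the difference from -0.26 to 0.26.

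The mitotic genes of M livers overlapped with C as well. Cdk1 had 0.67, 0.94, 1.17 and 1.48 in M, against 0.62, 1.13, 1.45 and 1.13 in C, with a 95% interval from -0.48 to 0.44. Ccnb1, cyclin B1, had 0.11, 0.42, 0.59 and 0.99 in M, against -0.07, 0.56, 0.74 and 0.72 in C, with an interval from -0.41 to 0.50. In both genes the replicates of a group differed by more than the groups did. Cdc20, an activator of the anaphase-promoting complex, was -0.28 ± 0.22 (adjusted p = 0.734) and Tpx2, a spindle assembly factor, -0.19 ± 0.14 (adjusted p = 0.71) in M against C. Over the 34 genes the median difference was -0.021, with 12 higher and 22 lower, beside a median of -0.002 over all transcripts, of which 50.6% were lower. The median of the members was -0.086 without C replicate 1 and 0.032 without C replicate 3, so its sign depended on single arrays.

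**Figure D1:**
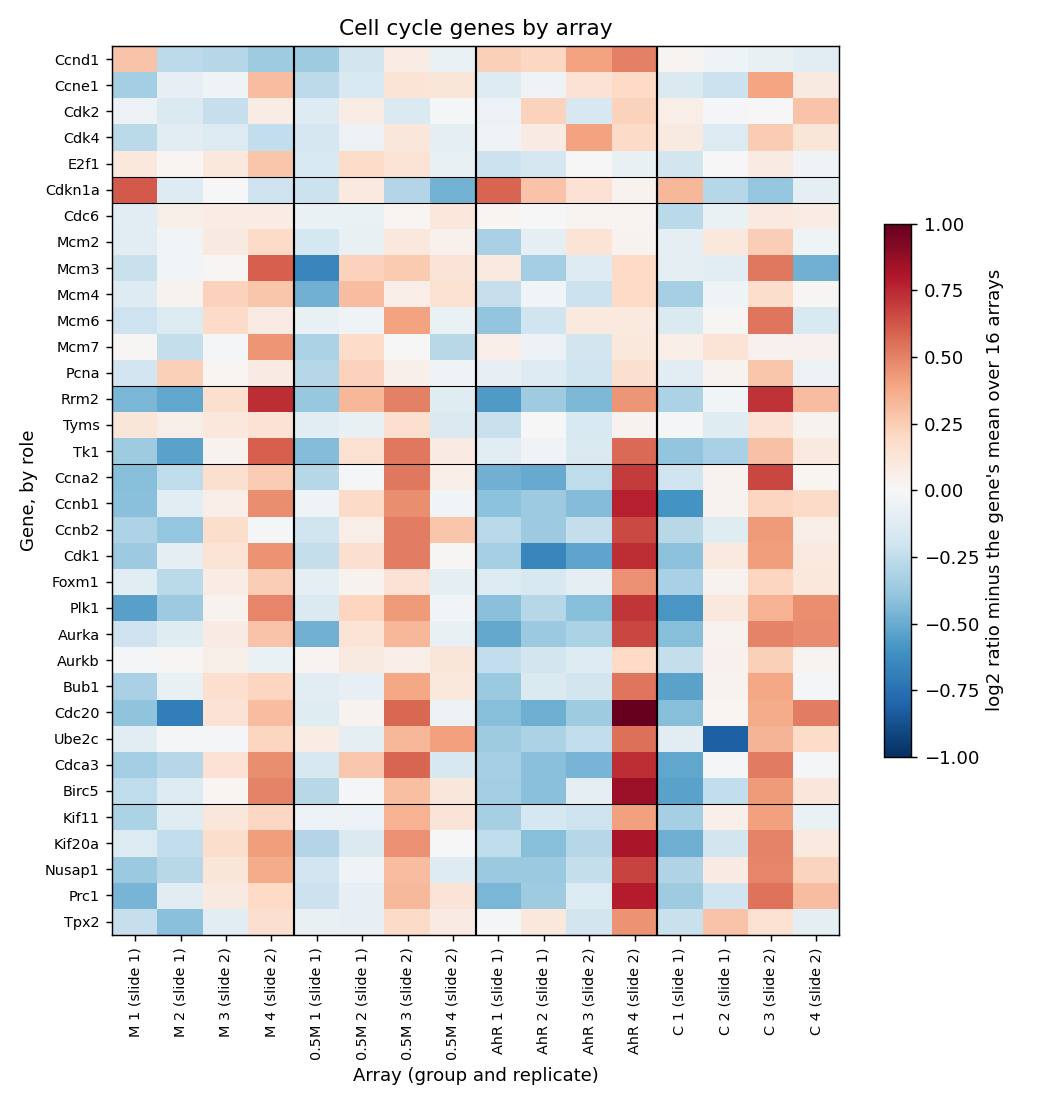
Heat map of 34 cell cycle genes (rows, by role) on 16 arrays (columns, by group, with the slide), coloured by the log2 ratio minus the mean of the gene over 16 arrays. Array AhR 4 was the highest of all arrays for 17 of the 34 genes. The slide 1 arrays of each group are mostly paler or bluer than its slide 2 arrays in the mitosis genes, with exceptions. AhR 3 is blue as well, and 0.5M 2 and 0.5M 4 are close, with medians over the mitosis genes of 0.004 and 0.037.

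At 0.5 mg/kg/day (0.5M against C), 0 of 34 genes passed the adjusted p, where 0.0152% of all transcripts did, and 0 had an unadjusted p under 0.05, where 6.52% of all transcripts did. The smallest p belonged to Ube2c, the ubiquitin-conjugating enzyme that works with the anaphase-promoting complex. It had 0.65, 0.48, 0.91 and 0.99 in 0.5M, against 0.47, -0.24, 0.92 and 0.76 in C. The ranges overlapped, and the difference was 0.28 ± 0.17 (adjusted p = 0.78), or 0.099 without C replicate 2, the lowest array.

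Mcm7, a helicase subunit, was -0.18 ± 0.13 (adjusted p = 0.819) and Mcm2, another subunit, -0.08 ± 0.09 (adjusted p = 0.877) in 0.5M against C. Tk1, thymidine kinase, was 0.17 ± 0.17 (adjusted p = 0.877). Cdk4 and Cdk2 had -0.13 ± 0.09 and -0.14 ± 0.11 (adjusted p = 0.8 and 0.819), and the same C arrays served as their comparison in M. For Ccnd1 the difference was -0.08 ± 0.13, for Cdkn1a -0.11 ± 0.15 and for Pcna -0.05 ± 0.12. The second, dimmer probe of Cdkn1a gave -0.58, the same sign but a larger size, so the size of its difference was not settled. Cdk1 differed by 0.06 ± 0.22 and Ccnb1 by 0.19 ± 0.21. The median over the 34 genes was -0.003, with 16 higher and 18 lower beside 51.3% of all transcripts lower, and the medians within slides were -0.05 on slide 2 and 0.10 on slide 1. It was -0.07 without 0.5M replicate 2 and 0.058 without 0.5M replicate 4.

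With the AhR agonists (AhR against C), 0 of 34 genes passed the adjusted p, where 0.00761% of all transcripts did, and 2 had an unadjusted p under 0.05, where 3.79% of all transcripts did. Ccnd1 had -0.44, -0.47, -0.27 and -0.17 in AhR, against -0.65, -0.72, -0.75 and -0.78 in C. All 4 AhR arrays lay above all 4 C arrays, as was the case for 1 of the 34 genes, while groups that do not overlap made up 2% of all transcripts. The difference was 0.39 ± 0.13 (unadjusted p = 0.00898, adjusted p = 1), with 0.23 on slide 1 and 0.54 on slide 2. Cdkn1a had 0.88, 0.58, 0.44 and 0.33 in AhR, against 0.63, 0.01, -0.09 and 0.21 in C. The groups overlapped through C replicate 1, the difference was 0.37 ± 0.15 (unadjusted p = 0.0291, adjusted p = 1), and the second probe gave -0.24, the other sign.

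**Figure D2:**
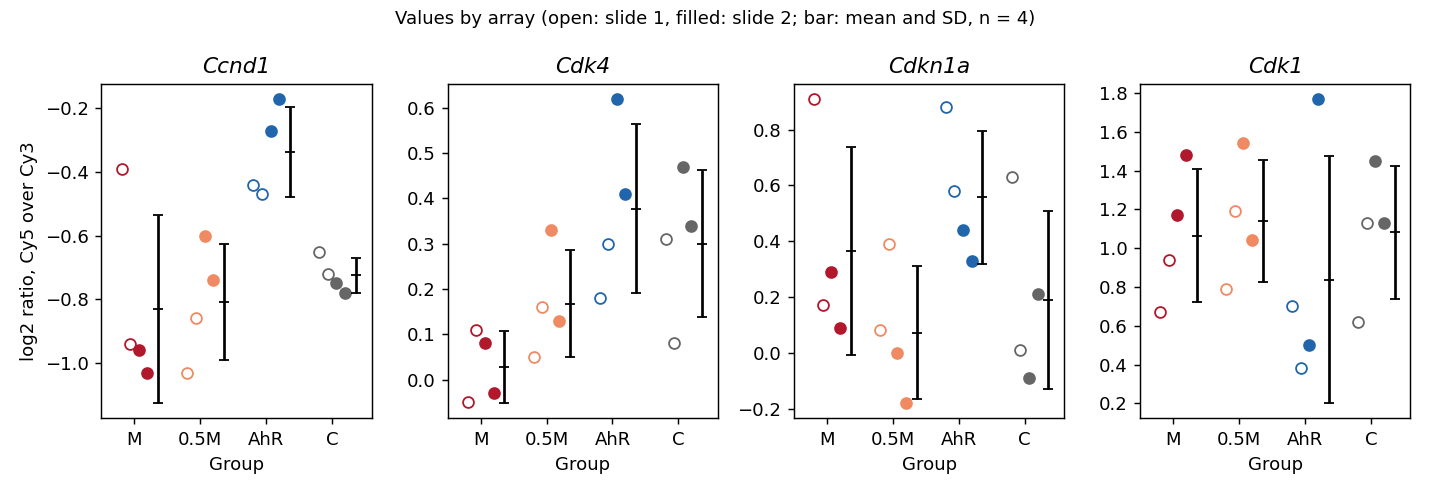
Log2 ratios of Ccnd1, Cdk4, Cdkn1a and Cdk1 in each array of the groups M, 0.5M, AhR and C (open points slide 1, filled points slide 2; bars are mean and SD, n = 4). The AhR arrays of Ccnd1 lie between -0.47 and -0.17, all above the C arrays, while the Cdk1 values of all groups overlap.

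Several genes of DNA synthesis and mitosis had lower values in AhR than in C, but none passed the test. Rrm2 had 0.66, 0.87, 0.78 and 1.67 in AhR, against 0.91, 1.2, 1.95 and 1.54 in C. Of the AhR arrays, 3 lay below all C arrays and replicate 4 lay among them, for a difference of -0.41 ± 0.22 (adjusted p = 1). Aurka, the centrosome kinase, was -0.28 ± 0.19, Ccna2 -0.27 ± 0.18, Mcm2 -0.12 ± 0.09 and Pcna -0.10 ± 0.12 (adjusted p = 1 each). Cdk1 had 0.70, 0.38, 0.50 and 1.77 in AhR, against 0.62, 1.13, 1.45 and 1.13 in C, a difference of -0.24 ± 0.22. Ccnb1 had 0.12, 0.16, 0.09 and 1.30 in AhR, against -0.07, 0.56, 0.74 and 0.72 in C, a difference of -0.07 ± 0.21. In both, AhR replicate 4 was the highest array of all and the other 3 AhR arrays were low. Over the 34 genes 24 were lower and 10 higher, beside 49.9% of all transcripts lower, with a median of -0.079, which was -0.146 without AhR replicate 4 and 0.036 without AhR replicate 3.

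**Figure D3:**
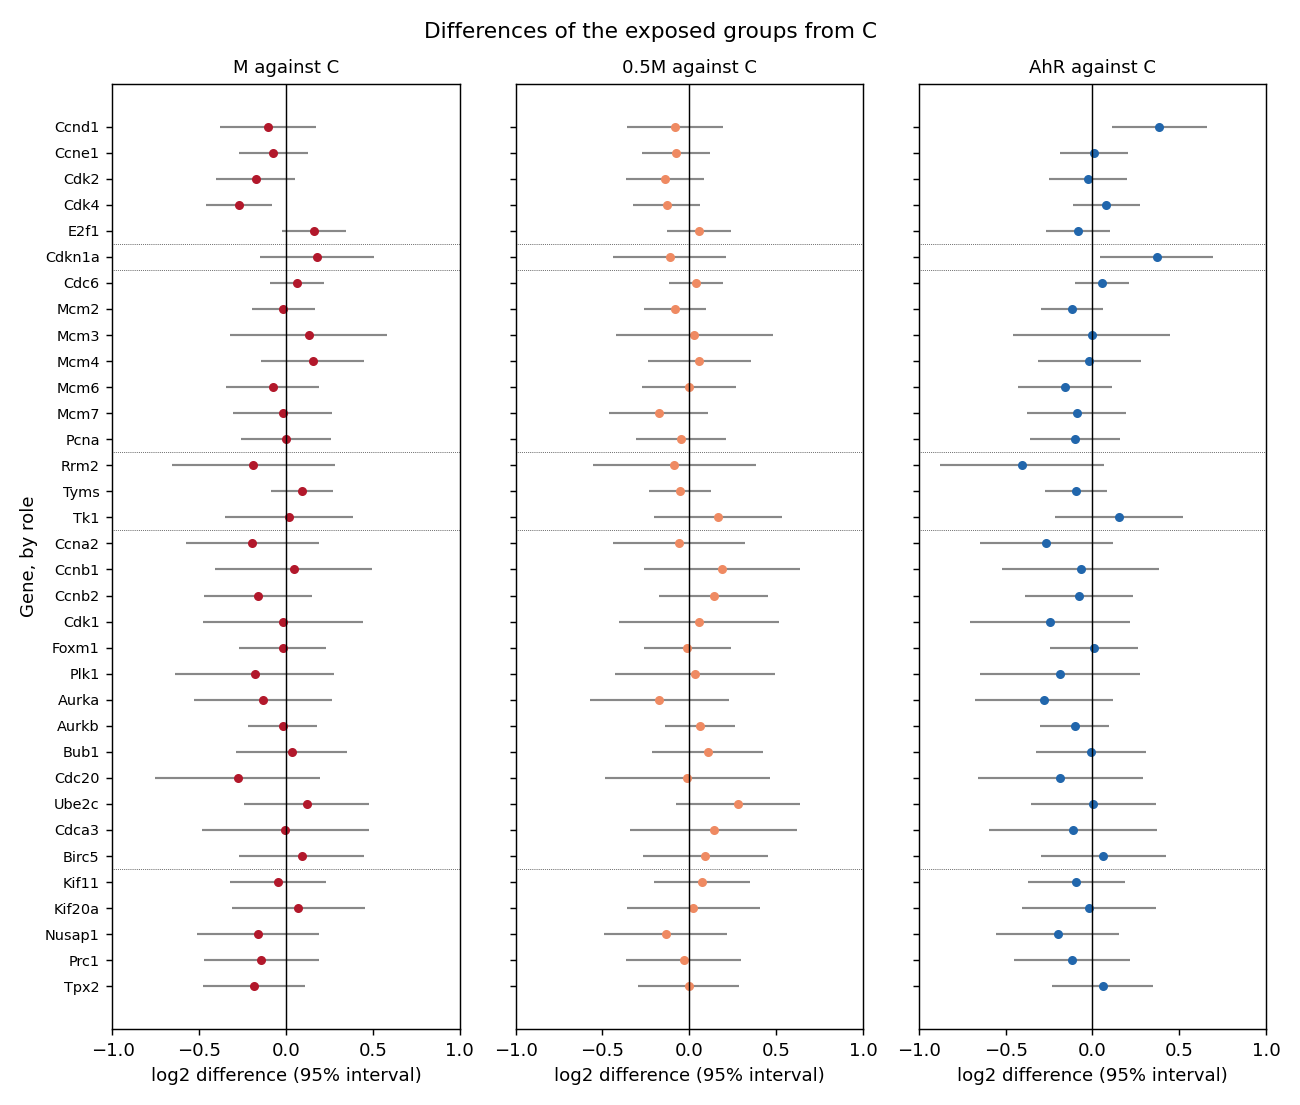
Log2 differences of 34 genes (rows, by role) from C in M, 0.5M and AhR, with 95% intervals from limma. Every interval lies between -1 and 1, and all cross 0 except those of Cdk4 in M and of Ccnd1 and Cdkn1a in AhR.

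The precision of these differences was similar for all comparisons, with a median half-width of the 95% interval of 0.316 on the log2 scale. All 34 intervals lay within 1 log2 unit of 0 in each of the 6 comparisons between groups. A difference of that size in the ratios as processed here therefore lay outside the interval of each gene. For dim genes this does not exclude such a change in RNA, since the normexp offset of 50 draws their ratios towards 0. Median Cy5 signals below that offset ran from 13.38 in Cdc6 to 33.75 in Ccnb2, with Aurkb, Mcm6, Tpx2, Kif11 and Tyms between them.

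Between the exposed groups, 0 of 34 genes passed in M against 0.5M, in M against AhR or in 0.5M against AhR, where 0.0152%, 0.266% and 0.0228% of all transcripts did. At an unadjusted p under 0.05 there were 0, 4 and 3 genes, beside 6.75%, 9.87% and 9.05% of all transcripts, and the 4 in M against AhR were Ccnd1, Cdk4, E2f1 and Tyms. The F-test of limma over the 4 groups called 0 members, beside 0.175% of all transcripts. In M against 0.5M the smallest p values were those of Ccnb2, cyclin B2, at -0.30 ± 0.15 (adjusted p = 0.73) and Cdkn1a at 0.29 ± 0.15 (adjusted p = 0.763). In M against AhR, Ccnd1 was -0.49 ± 0.13 (adjusted p = 0.18) and Cdk4 -0.35 ± 0.09 (adjusted p = 0.174). All 4 M arrays of Cdk4 lay below all AhR arrays, and 3 of the 4 did so for Ccnd1. Groups did not overlap for 3 members, Cdk4, E2f1 and Tyms, beside 4% of all transcripts. Without M replicate 1, Ccnd1 passed the test, at -0.66 with an adjusted p of 0.0064, where 18 of all 13146 transcripts passed. That array carried pancreas transcripts and had the fewest probes well above background, and their part in the result was not tested. In 0.5M against AhR, Ccnd1 was -0.47 ± 0.13 (adjusted p = 0.33), with the 0.5M arrays all below the AhR arrays, as for 1 of 34 members beside 5.01% of all transcripts, and Cdkn1a was -0.48 ± 0.15 (adjusted p = 0.406). These comparisons share the AhR arrays and are not independent of each other.

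The median of the members differed more between the slides than between any pair of groups. Against slide 1, 33 of the 34 genes were higher on slide 2, beside 56.3% of all transcripts, and 14 passed the adjusted p higher, beside 4.82% of all transcripts. The largest were Cdc20 at 0.63 ± 0.16 (adjusted p = 0.0279), Rrm2 at 0.58 ± 0.16 (adjusted p = 0.0356), Prc1, which bundles microtubules in the central spindle, at 0.56 ± 0.11 (adjusted p = 0.0108), Birc5, survivin, at 0.56 ± 0.12 (adjusted p = 0.0143), Kif20a, a kinesin of cytokinesis, at 0.54 ± 0.13 (adjusted p = 0.0214) and Ccna2 at 0.54 ± 0.13 (adjusted p = 0.0222). Cdkn1a alone was lower, at -0.32 ± 0.11 (adjusted p = 0.0827), and its second probe gave 0.37. The median over the members was 0.34, beside 0.02 over all transcripts. With median centring in place of loess these were 0.83 and 0.73, so the distance of the members from all transcripts was smaller. Slide 1 arrays were also dimmer. Without the 4 arrays with the fewest probes above background 0 members passed, while 584 of all 13146 transcripts did, and the median over the members was 0.295. Without the 5 arrays that carry transcripts of other tissues 0 members and 36 transcripts passed, with a members' median of 0.419. Whether the brightness of the arrays plays a part was not tested. Each slide held 2 arrays of every group, from different pups, so the slide and the pups on it cannot be told apart.

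**Figure D4:**
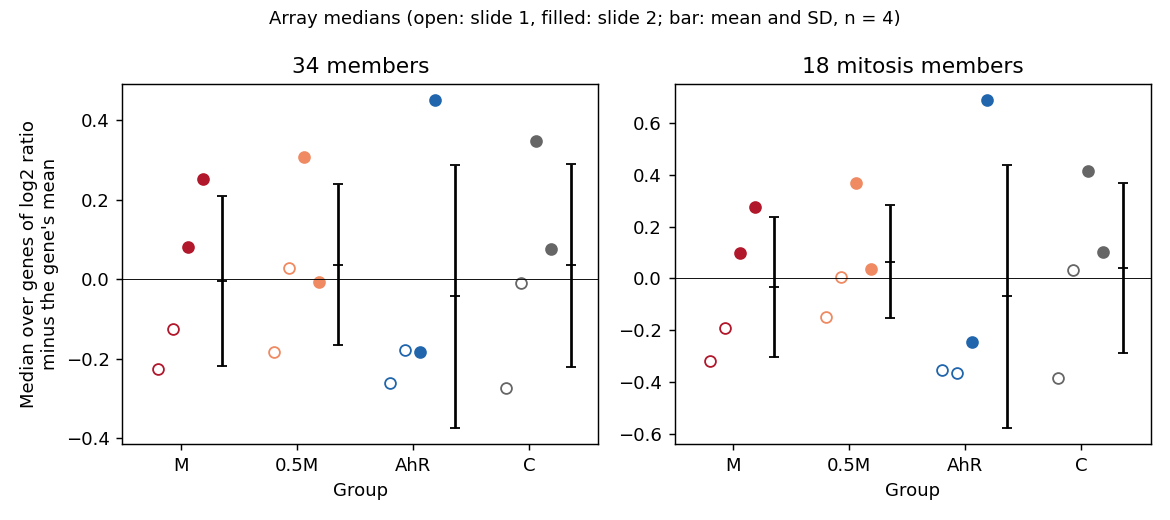
Median over 34 members (left) and over 18 mitosis members (right) of the log2 ratio minus the mean of the gene, by array (open points slide 1, filled points slide 2; bars are mean and SD, n = 4). AhR replicate 4 reached 0.69 for the mitosis members, and the other 3 AhR arrays lay between -0.37 and -0.24.

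The genes of mitosis varied together from array to array, also after group and slide means were removed. For the 18 measured genes of the G2/M switch and the spindle, the median correlation between pairs of genes over the 16 arrays was 0.808, and 88.2% of pairs were above 0.5. Over all 34 members the median was 0.447 and over all transcripts 0.002. These correlations are descriptions, since the genes share arrays, depth and dye. Cdca3, Nusap1, a spindle microtubule protein, Cdk1 and Kif20a followed the mean of the other members most closely, at r = 0.975, 0.951, 0.941 and 0.934. Cdkn1a at -0.254, Cdk4 at -0.157, Ccnd1 at 0.028 and Cdc6 at 0.077 did so least. The value of Cdkn1a is that of its brighter probe. Its second probe, which had the other sign between slides, was not examined here. Cdc6 was well above background on 5 of the 16 arrays. Ube2c was the mitotic gene with the weakest relation, at 0.324, with opposite signs within slide 1 (-0.622) and slide 2 (0.78). Within slide 1 the relation of Cdk1 was 0.778 and within slide 2 0.986.

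**Figure D5:**
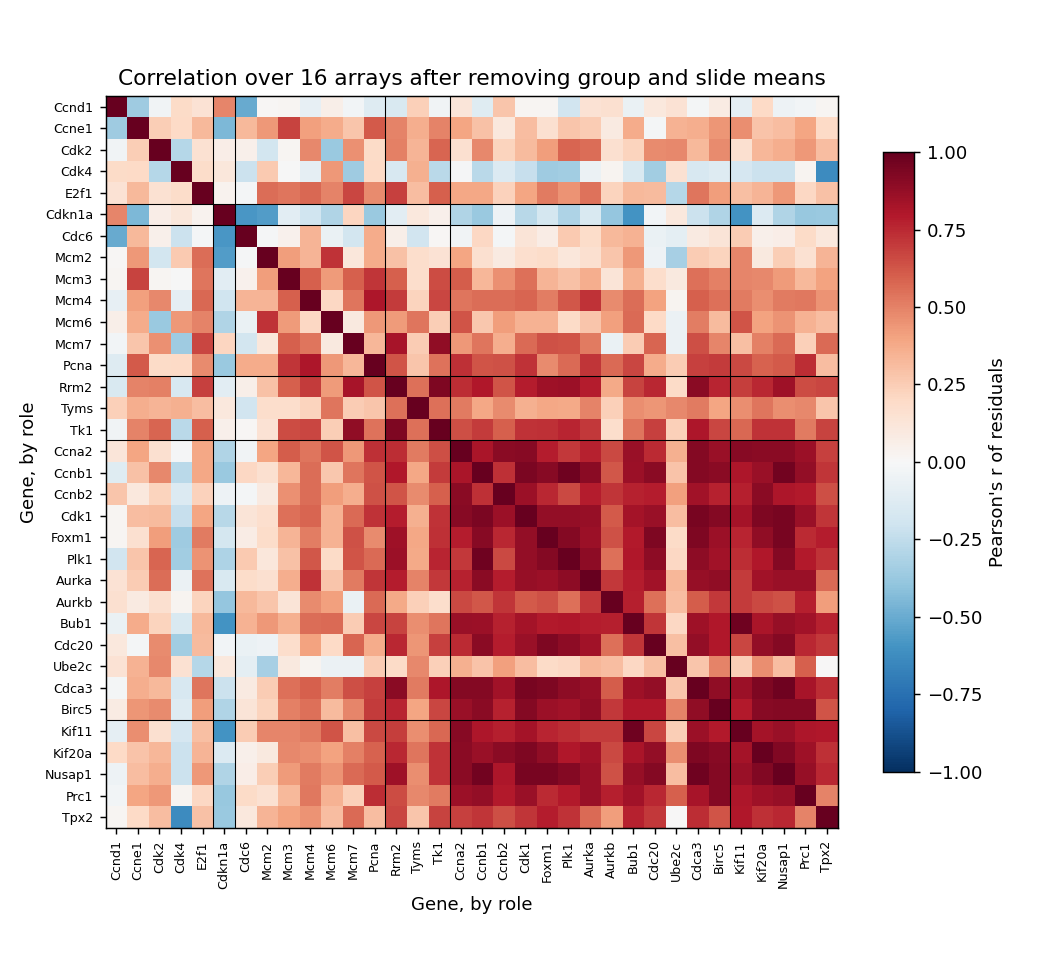
Pearson correlation between 34 genes over 16 arrays after group and slide means were removed, with genes ordered by role. The mitosis genes form a block of high values, with a median of 0.808, while Cdkn1a (brighter probe only), Cdk4 and Ccnd1 stay near or below 0 with it.

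Arrays of 1 group lay further apart than the groups did. The highest median of the members' deviations in each group was 0.25 in M replicate 4, 0.31 in 0.5M replicate 3, 0.45 in AhR replicate 4 and 0.35 in C replicate 3, all on slide 2. The lowest was -0.23 in M replicate 1, -0.18 in 0.5M replicate 1, -0.26 in AhR replicate 1 and -0.27 in C replicate 1, all on slide 1. Within groups the SD of these medians was 0.256, above the median difference of every comparison between groups. This SD is that of single arrays and includes the difference between slides, which is balanced over the groups. It does not measure the error of a difference between groups. In AhR replicate 4 the marker medians were -0.08 for hepatocyte, -0.10 for erythroid, 0.08 for macrophage, 0.03 for lymphoid and 0.30 for neutrophil genes, none of them the highest of the 16 arrays. Their part in the result was not tested. Of transcripts outside the list, Knstrn followed the members most closely, at r = 0.969 over 16 arrays, followed by Spag5 at 0.959, Tacc3 at 0.951, Tcf19 at 0.949 and Kifc1 at 0.948.

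Further genes of the same pathway were counted in the same way. They were 22 other replication genes, 31 other mitosis genes, 18 other G1 genes and 16 p53 targets measured. In limma 0 of them passed the adjusted p in M, 0.5M or AhR against C, where 0.319%, 0.0152% and 0.00761% of all transcripts did. At such shares, lists of this size would hold few calls or none. At an unadjusted p under 0.05 the 4 lists had 1, 1, 0 and 3 genes in M, 0, 0, 1 and 2 in 0.5M, and 0, 1, 0 and 1 in AhR, where 10.1%, 6.52% and 3.79% of all transcripts had such a p in M, 0.5M and AhR. The median of the other mitosis genes was -0.06 in M, -0.01 in 0.5M and -0.11 in AhR against C, with 25 of 31 lower in AhR. Among the other replication genes 17 of 22 were lower in AhR, with a median of -0.07, and 49.9% of all transcripts were lower there. Tacc3, Kifc1, Ckap2 and Spc25 of the other mitosis genes were among the 10 transcripts most like the members over the arrays. The count of other mitosis genes is therefore not separate from that of the members. Only the gene with the smallest p of each list is named. Unnamed genes of a list may have smaller p than genes named for another. In M these were Aen, a p53-induced nuclease, at 0.41 ± 0.10 (adjusted p = 0.127) and Lmnb1, lamin B1, at 0.44 ± 0.16 (adjusted p = 0.322). The others in M were Hells, a chromatin remodeller, at 0.25 ± 0.10 (adjusted p = 0.39) and E2f3 at 0.17 ± 0.08 (adjusted p = 0.507). By this rule the genes in 0.5M were Sesn2 at -0.28 ± 0.11, Hells at 0.20 ± 0.10, Cenpm at -0.20 ± 0.11 and E2f6 at -0.20 ± 0.09. In AhR they were Ccnf at 0.25 ± 0.09, Rfc4 at -0.23 ± 0.11, E2f6 at -0.20 ± 0.09 and Ddit4 at 0.18 ± 0.09.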

How the data were processed

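Livers were hybridised to 16 Agilent 2-colour arrays, 4 per group. Per the file headers, the authors' scan files came from Agilent Feature Extraction 10.7.3.1 and hold the median signal and background of both channels as intensity, a LogRatio on the log10 scale and quality marks of the unit other. A second file deposited by the authors gives log2 values, and its columns correlated with their own array at 0.965 to 0.991 and with any other at no more than 0.882. How it was normalized is not given in the sources used here, so it served as an alternative. Median signals were used because the scan files give no means, although means had been planned.

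Signals were corrected with normexp (offset 50) and loess within arrays in limma 3.58.1 (R 4.3.3), with control spots given no weight. The filter kept probes whose Cy5 signal was well above background on 4 or more of 16 arrays (14524 of 30367). Symbols came from RefSeq transcript numbers (18004 probes with one, 12363 without), and the brightest probe of a gene was used, which left 13146 transcripts. The number of arrays limits the precision. limma fitted a mean per group and a slide term to all 16 arrays, with Benjamini-Hochberg adjustment over all transcripts, and a called gene has an adjusted p under 0.05. limma was tested on simulated data. Members and gene lists were chosen with earlier results of these data known. In each comparison with C, called genes were named, or the 6 with the smallest p if fewer were called (2 between exposed groups, the 6 largest called for the slide), the 4 highest and lowest levels, and always Cdk1, Ccnb1, Ccnd1, Cdkn1a and Pcna. Of other lists the smallest p was named. Alternatives covered background correction, normalization, filters, probe choice, model terms, array weights and left-out arrays. Replicate numbers were not taken as pairs, and 4 of 24 same-numbered pairs correlated above 0.1 once the slide was removed. Pairs with different numbers were not examined, so this count cannot show that pairing is absent.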

Additional observations from a re-analysis of the deposited data

Results flagged for a closer look

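Of 144 groups of 4 values examined, 17 had 1 array far from the other 3, by a gap to the nearest above the 95% critical value of Dixon's test, which chance passes in about 1 of 20 groups. In AhR, replicate 4 was high for 11 genes. It had 1.22 for Tk1, 1.30 for Ccnb1, 0.95 for Ccnb2, 0.75 for Foxm1, 1.58 for Plk1, 1.35 for Aurka, 1.82 for Cdc20, 1.13 for Ube2c, 1.94 for Cdca3, 1.45 for Kif20a and 1.32 for Nusap1. The nearest other AhR array had 0.62 for Tk1, 0.16 for Ccnb1, 0.45 for Cdc20 and 0.87 for Cdca3. Its median over the members was 0.45 and over the mitosis members 0.69, where the nearest AhR arrays had -0.18 and -0.24. Since these genes vary together, they are not separate events.

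In M, replicate 1 was high for Ccnd1, at -0.39 with the nearest at -0.94, and low for Cdc6, at -0.02 with the nearest at 0.15. In 0.5M, replicate 1 was low for Mcm3, at 0.36 with the nearest at 1.14, and replicate 3 was high for Mcm6, at 0.58 with the nearest at 0.14. M replicate 1 had the fewest probes above background of the 16 arrays, 7082.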

How the results depend on the processing

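In the 3 comparisons with C, 0 members were called under all alternatives run. Over all transcripts the alternatives called 1 to 66 in M, 0 to 3 in 0.5M and 0 to 1 in AhR. With so few calls, 0 among 34 members says little about how stable the result is. In M against AhR, 1 member (Ccnd1) was called with array weights, where 64 of all 13146 transcripts were. It was also called without the 2 arrays with pancreas transcripts (20 of all transcripts) and without the 4 dimmest arrays (21). Without the 5 arrays with transcripts of other tissues it was called as well (19). With single arrays left out 0 to 1 members were called, as with the F-test. The members' level in C had a median of 0.48 and was 0.806 from the scanner LogRatio. The slide difference was 0.83 with median centring, and the members called, 14 as reported beside 1053 of all 13146 transcripts, were 30 with median centring (of all transcripts, 10287), 1 with the scanner LogRatio (120), 2 without the pancreas arrays (502), 0 without the 5 arrays (36), 0 with a normexp offset of 0 (117), 0 without the 4 dimmest arrays (584) and 7 to 19 with single arrays left out (509 to 1096). The slide difference of the members was then 0.312 with the scanner LogRatio, 0.326 without the pancreas arrays, 0.419 without the 5 arrays, 0.41 with an offset of 0 and 0.295 without the 4 dimmest arrays. The median correlation of members was 0.665 with median centring, 0.618 without a slide term, 0.672 on slide 2 alone and 0.599 without the 5 arrays, and 0.417 to 0.511 with single arrays left out. Of the 10 most similar transcripts, 2 were shared with median centring, 3 with the scanner LogRatio, 1 on slide 1 alone, 3 on slide 2 alone, 6 without the 5 arrays, 5 without the 4 dimmest and 6 to 10 with single arrays left out. The cause was not tested. The settings offset 0 and without the 4 dimmest arrays were chosen after seeing the data.

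Of 180 values of the 6 genes named for the slide, 43 no longer passed, with the same direction. Of 971 values of named genes between groups, 5 newly passed, and 43 had the other sign, none of them called. For Ccnb1 they were -0.013 in 0.5M (without the 4 dimmest), 0.0027 (array weights) and 0.042 (without the 5 arrays) in AhR, and -0.0082 (without the muscle arrays) and -0.0031 (without the 4 dimmest) in M, each against C. For Ccnd1 they were 0.09 in 0.5M on slide 2 alone and 0.023 in M on slide 1 alone. For Cdk1 in 0.5M they were -0.018 (median centring), -0.0011 (slide 2 alone) and -0.115 (without the 4 dimmest), and in M 0.073 (scanner LogRatio), 0.033 (slide 2 alone), 0.048 (without the pancreas arrays), 0.072 (without the 5 arrays) and 0.039 (offset 0). Cdkn1a in M was -0.121 with median centring, and without the 5 arrays Mcm2 in 0.5M was 0.0015 and Tpx2 in M was 0.0019. For Pcna in 0.5M they were 0.0089 (slide 1 alone) and 0.0012 (without the 5 arrays), and in M 0.0064 (scanner LogRatio), 0.058 (slide 1 alone), 0.072 (without the pancreas arrays), 0.007 (offset 0) and 0.029 (without the 4 dimmest). With single arrays left out, Ccnb1 ranged from -0.311 to 0.129 in AhR and from -0.081 to 0.147 in M, Cdk1 from -0.045 to 0.176 in 0.5M and from -0.104 to 0.083 in M, and Pcna from -0.145 to 0.038 in 0.5M and from -0.088 to 0.075 in M. Ccnd1 in M against AhR ranged from -0.655 to -0.413.

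With the replicate number as a block in place of the slide, the median difference of members was -0.021 in M, -0.0025 in 0.5M and -0.079 in AhR against C, and 0 members were called in every comparison between groups. Of same-numbered pairs, 16 of 24 correlated above 0.1, and 4 of 24 once the slide was removed. The numbers were not taken as pairs, but these counts cannot show that pairing is absent, since pairs with different numbers were not examined.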

Other observations

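The Cy3 channel carried liver transcripts on all 16 arrays. Its correlation with Cy5 over transcripts was 0.933 to 0.971 by array. Rup2 ranked 3 of 13146 in Cy3 and had a mean log2 ratio of -8.85, and Mup4l4 had -7.04. Afp, alpha-fetoprotein of fetal and young liver, had a mean ratio of 1.51.

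Transcripts that ran against the cell cycle genes over the 16 arrays, after group and slide means were removed, were led by Fgfr1 at r = -0.884, Ifitm3 at -0.854, Thra at -0.841, Sds at -0.80 and Rfng at -0.80. Sds, serine dehydratase of amino acid breakdown, had -1.58, -0.99, -1.05 and -1.68 in M, -1.03, -1.54, -0.93 and -0.63 in 0.5M, -1.08, -1.55, -0.95 and -1.80 in AhR and -0.70, -1.46, -1.10 and -0.34 in C. It was lowest in AhR replicate 4, the array with the highest mitosis median. These transcripts were picked for the correlation, which is a description.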
